A study of Mus musculus with 8 samples.

Results

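Carbonic anhydrases are the enzymes that convert carbon dioxide and water into bicarbonate and a proton, and the liver uses several of them in different compartments of the cell. The 5 genes described here are *Car2*, *Car3*, *Car5a*, *Car8* and *Car14*, among 18095 genes with a row in the liver count table. They were chosen by gene symbol, on knowledge of how *Car3* differed in this same contrast. Their own differences between the genotypes are therefore given as values, and nothing is read from a test of them. GENCODE M21 lists 16 genes of the family for the mouse. Of these, 12 have a row in the table analysed here, and *Car4*, *Car6*, *Car10* and *Car12* do not. All 5 chosen genes passed the filter on low counts, as did 4 of the 7 other family genes with a row.

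Most members of the family hold a zinc ion in the active site between 3 histidines, and this ion activates the water molecule that attacks carbon dioxide. CAR2 is the high-activity enzyme of the cytosol, known from red blood cells, bile ducts and kidney. CAR3 is an abundant cytosolic protein of liver, muscle and fat with low hydratase activity, and its reactive cysteines become bound to glutathione under oxidative stress. In rat liver it is more abundant in males and depends on the pattern of growth hormone release. CAR5A sits in the mitochondrial matrix, where it supplies bicarbonate to carbamoyl phosphate synthetase (CPS1), the entry step of the urea cycle, and to pyruvate carboxylase (PCX), the entry step of gluconeogenesis. CAR8 is a carbonic anhydrase-related protein without enzyme activity that binds the inositol trisphosphate receptor, and CAR14 is anchored in the plasma membrane with its active site outside the cell.

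The coding sequence around the first pair of zinc ligands shows how the 5 genes differ where the enzyme works, and why *Car8* is set apart from the other 4. Each line below gives 18 coding bases, 5′ to 3′, with the codons at the first and second zinc-ligand positions in capitals. They were read from the longest protein-coding transcript of each gene in GENCODE M21 (GRCm38).
Car2: tttCACtttCACtggggc
Car3: ttcCATcttCACtggggc
Car5a: tttCATttcCACtgggga
Car8: gttAGAtttCACtgggga
Car14: ctcCACctgCACtggggt
In *Car2*, *Car3*, *Car5a* and *Car14* both capital codons (CAC or CAT) encode histidine, whereas the first in *Car8* is AGA, an arginine codon. The windows lie on GRCm38 at chr3:14895066-14895083 (+ strand) for *Car2*, chr3:14866847-14866864 (+) for *Car3*, chr8:121927140-121927157 (- strand) for *Car5a*, chr4:8221607-8221624 (-) for *Car8* and chr3:95900303-95900320 (-) for *Car14*. Each is exonic and coding, in exon 3 of its transcript except that of *Car14*, which is in exon 4. Over their whole coding sequences the 10 pairs of genes were 58.3% to 64.9% identical, and the longest exact stretch shared by any pair of these transcripts was 16 bases.

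The RNA came from livers of male mice aged 12 weeks, 4 labelled Inpp4b-/- (a constitutive knockout) and 4 labelled WT, all on a high-fat diet (HFD). The study's methods state that the dams were also given the HFD, from before mating until weaning. The labels name C57BL/6 as the strain background and the methods name FVB. Totals were 25893430 to 31427831 counts in the libraries labelled HFD WT and 32738435 to 36662531 in those labelled HFD Inpp4b-/-, so depth and genotype cannot be told apart. *Inpp4b* itself had 33, 10, 9 and 14 counts under the HFD Inpp4b-/- label and 6, 20, 5 and 8 counts under the HFD WT label (replicates 1 to 4 of each). The knockout label did not come with lower *Inpp4b* counts (two-sided exact permutation test of mean CPM, p = 0.514, n = 4 per genotype), and every direction given here rests on the labels. Replicate 2 labelled HFD WT stood apart in *Cyp2b9*, a cytochrome P450 more abundant in females, with 10.3 CPM against 0.845 to 1.66 CPM in the other 3. The values of the 5 genes are therefore also given without it, as are the calls that change when it is left out. Levels are given in CPM, the counts of a gene per 1000000 counts of its library's TMM-normalized total.

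*Car3* (ENSMUSG00000027559, chromosome 3, 14863512 to 14872523, + strand) was the member that differed most. It reached 3944, 3999, 2850.3 and 2966 CPM in replicates 1 to 4 labelled HFD Inpp4b-/-. In replicates 1 to 4 labelled HFD WT it reached 1876, 2265, 2086 and 2242 CPM. Every HFD Inpp4b-/- library was above every HFD WT library, and the lowest of the former was 1.26 times the highest of the latter. Such a separation, with all HFD Inpp4b-/- libraries on top, was found for 4.63% of the 14866 genes tested. Within the HFD Inpp4b-/- group, replicates 1 and 2 stood above replicates 3 and 4, while the HFD WT libraries lay close together. The means were 3439.8 ± 616 CPM (SD, n = 4) and 2118 ± 179 CPM (SD, n = 4), a ratio of 1.62. In bulk tissue, more cells of a type and more RNA per cell cannot be told apart. The log2 fold change of the edgeR fit was 0.70 ± 0.14 (SE), and 0.73 without HFD WT replicate 2. The transcript made up 0.271% to 0.422% of all counts in the libraries labelled HFD Inpp4b-/- and 0.181% to 0.229% in those labelled HFD WT, and by mean CPM it ranked 42 among the 18095 genes.

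*Car8* (ENSMUSG00000041261, chromosome 4, 8143362 to 8239041, - strand), the gene of the inositol trisphosphate receptor-binding protein, had a smaller difference of the same sign. It measured 126, 105, 99.1 and 88.6 CPM in replicates 1 to 4 labelled HFD Inpp4b-/- and 76.0, 84.9, 89.3 and 81.6 CPM in replicates 1 to 4 labelled HFD WT. The groups met at their edges, since HFD Inpp4b-/- replicate 4 was just under HFD WT replicate 3, and the other 3 HFD Inpp4b-/- libraries were above all HFD WT libraries. Its log2 fold change was 0.34 ± 0.11 (SE), also 0.34 without HFD WT replicate 2. Its spread between mice was the smallest of the 5 genes in the HFD WT group, with a SD of 6.78% of the mean (n = 4).

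*Car2* (ENSMUSG00000027562, chromosome 3, 14886273 to 14900770, + strand), the high-activity cytosolic enzyme, was low in these livers. It had 208, 217, 153 and 163 counts in replicates 1 to 4 labelled HFD Inpp4b-/-, or 5.77, 5.70, 4.92 and 4.58 CPM. The HFD WT libraries gave 103, 109, 127 and 132 counts, or 3.80, 3.43, 4.28 and 5.07 CPM. The groups overlapped, with HFD WT replicate 4 above HFD Inpp4b-/- replicates 3 and 4. The log2 fold change was 0.34 ± 0.18 (SE), and 0.25 without HFD WT replicate 2.

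*Car5a* (ENSMUSG00000025317, chromosome 8, 121916126 to 121944904, - strand), the mitochondrial enzyme, measured 52.9, 50.5, 57.1 and 74.2 CPM in replicates 1 to 4 labelled HFD Inpp4b-/-. In replicates 1 to 4 labelled HFD WT it measured 36.6, 64.3, 43.2 and 38.0 CPM. The overlap came from HFD WT replicate 2, which was above 3 of the 4 HFD Inpp4b-/- libraries, while the other 3 HFD WT libraries were below all of them. The log2 fold change was 0.36 ± 0.19 (SE), and 0.57 without HFD WT replicate 2, the replicate that stands apart in *Cyp2b9*. *Car5a* lies on the chromosome of *Inpp4b*, 39.8 Mb away. Its exons share 314 bases (23.5% of their length) with the antisense RNA BC048644, which had a mean of 333 counts. Whether the authors' counting used strand is not given in the sources used here, so reads of this shared stretch cannot be assigned with certainty.

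*Car14* (ENSMUSG00000038526, chromosome 3, 95897768 to 95904691, - strand), the membrane-bound enzyme, showed no steady direction. It measured 23.3, 23.8, 52.1 and 30.0 CPM in replicates 1 to 4 labelled HFD Inpp4b-/- and 24.1, 36.1, 33.6 and 20.4 CPM in replicates 1 to 4 labelled HFD WT. Apart from the 52.1 CPM of HFD Inpp4b-/- replicate 3, the groups covered the same range. The log2 fold change of 0.18 ± 0.28 (SE) turned to -0.15 without that library and was 0.30 without HFD WT replicate 2. A stretch of 445 exonic bases (17.5%) is shared with *Aph1a* on the other strand, which had a mean of 1868 counts.

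**Figure D1:**
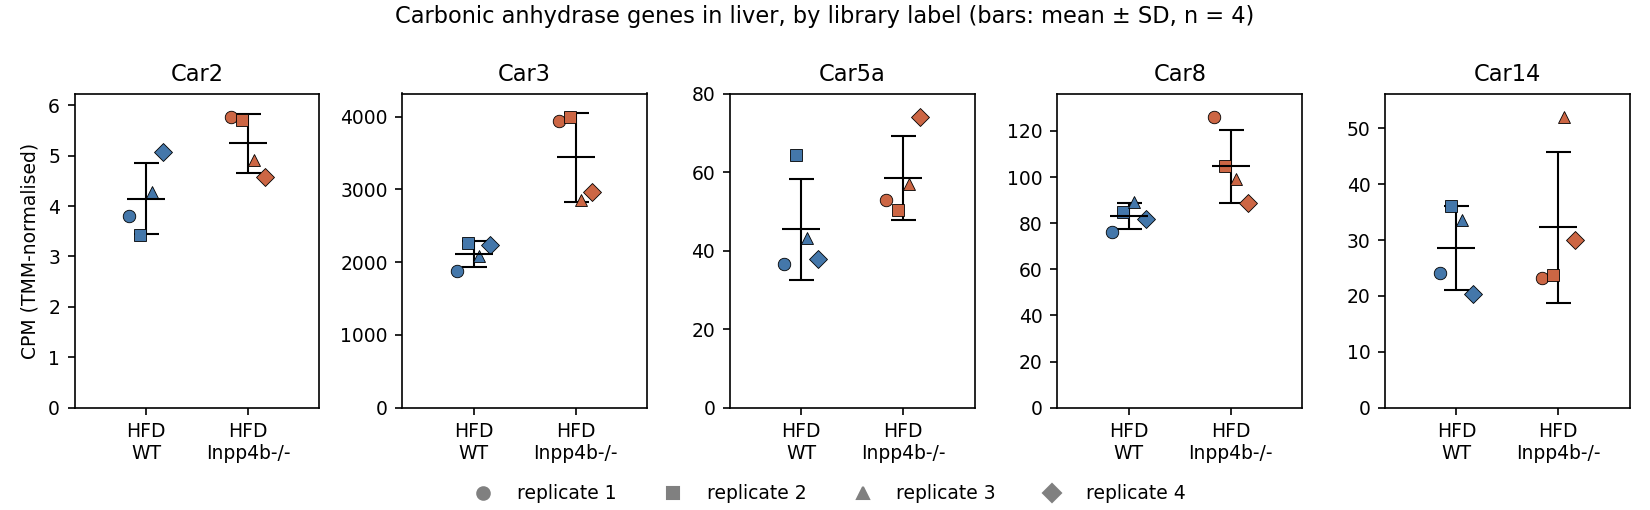
CPM (y axis, from 0) of the 5 carbonic anhydrase genes in the 4 HFD WT (blue) and 4 HFD Inpp4b-/- (orange) liver libraries, with marker shape for the replicate number and black bars for the mean ± SD. *Car3* is the gene whose groups are separate, 1876 to 2265 CPM in HFD WT and 2850.3 to 3999 CPM in HFD Inpp4b-/-.

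Across all 14866 tested genes, 174 (1.17%) passed a Benjamini-Hochberg FDR of 10% with a fold change over 1.3 in edgeR's quasi-likelihood test, with 82 (0.552% of the tested genes) called higher and 92 (0.619% of the tested genes) called lower in HFD Inpp4b-/-. Among the 5 carbonic anhydrases *Car3* was the 1 gene called, as higher, and since the genes were chosen with this contrast known nothing is read from that count. DESeq2 called 4.04% of the genes it tested. *Car3* was among them, but this fit used the same counts, so nothing is read from that call either. The *Car3* call was lost in 5 of the 8 fits that left out a library, those without HFD Inpp4b-/- replicate 1 or 2 or without HFD WT replicate 1, 3 or 4, in which its log2 fold change was between 0.62 and 0.73. Its sign was the same in all 14 alternative fits. The number of genes called over the whole table moved as well, from 53 without HFD Inpp4b-/- replicate 2 to 345 without HFD WT replicate 2.

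*Car3* was also set against hepatocyte transcripts within each library, which needs no scaling between libraries. Relative to the summed CPM of 9 hepatocyte genes (such as *Alb*, *Apoa1* and *Ttr*), *Car3* amounted to 3.85%, 4.56%, 2.67% and 3.27% in replicates 1 to 4 labelled HFD Inpp4b-/-. In replicates 1 to 4 labelled HFD WT it amounted to 2.06%, 2.68%, 2.52% and 2.57%. On this measure the groups touched, with HFD Inpp4b-/- replicate 3 just under HFD WT replicate 2. *Alb* and *Ttr* were themselves measured higher in every library labelled HFD Inpp4b-/-, but neither was called (adjusted p of 0.474 and 0.266, edgeR).

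Compared per kilobase of exon, the levels of the family spanned more than 4 orders of magnitude. In HFD WT, *Car3* stood at 739 ± 62.6 CPM per kb (SD, n = 4), followed by *Car5a* at 34.0 ± 9.60, *Car8* at 21.5 ± 1.46, *Car14* at 11.2 ± 2.95 and *Car2* at 1.71 ± 0.292 CPM per kb. The libraries labelled HFD Inpp4b-/- gave the same order, with 1201 ± 215, 43.8 ± 7.99, 27.2 ± 4.11, 12.7 ± 5.33 and 2.17 ± 0.243 CPM per kb. Neighbouring members did not overlap over the 4 libraries of either genotype. *Car1*, a red cell enzyme, came between *Car14* and *Car2* at 4.85 ± 0.963 CPM per kb in HFD WT. The level of *Car3* per kb was 21.7 times that of *Car5a* in HFD WT and 27.4 times in HFD Inpp4b-/-. *Car3* made up 91.8% to 95.3% of the summed CPM of the 12 family genes in the 8 libraries.

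**Figure D2:**
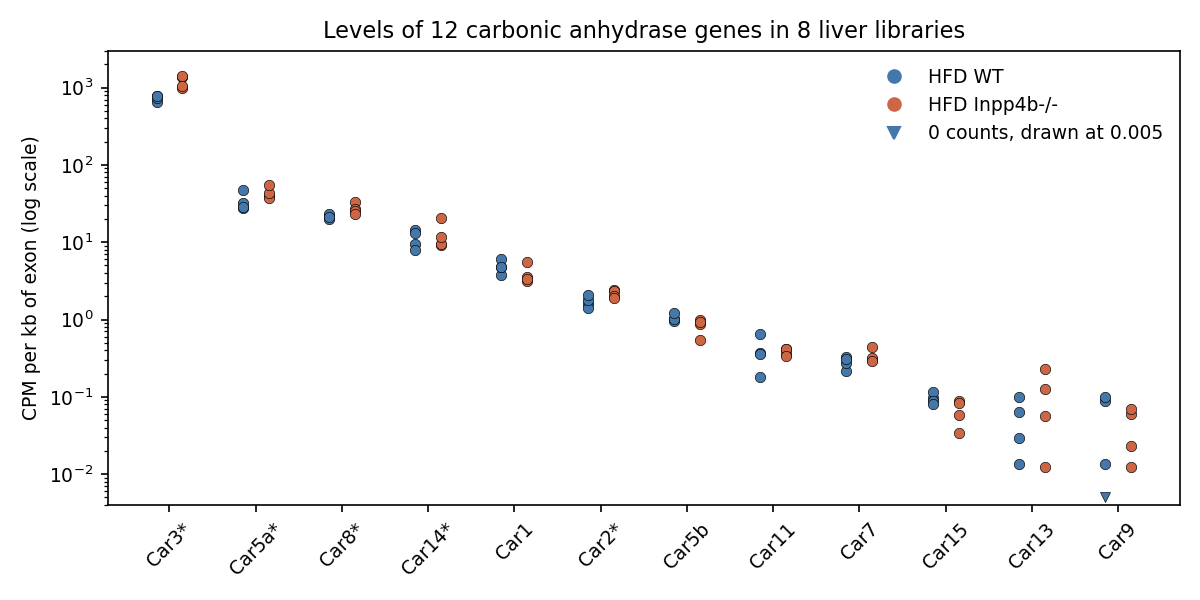
CPM per kb of exon (y axis, log scale) of the 12 carbonic anhydrase genes with a row, ordered by mean, with 1 point per library in HFD WT (blue) and HFD Inpp4b-/- (orange). Stars mark the 5 chosen genes, and *Car3* lies at 655 to 1396 CPM per kb, apart from all others.

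None of the 4 other tested family genes was called in edgeR (0 also at an unadjusted p under 0.05, and 0 in DESeq2). *Car5b*, the second mitochondrial enzyme, had a log2 fold change opposite in sign to *Car5a*, -0.34 ± 0.20 (SE, adjusted p = 0.478). It measured 6.24, 5.55, 5.86 and 3.43 CPM in replicates 1 to 4 labelled HFD Inpp4b-/- and 6.53, 6.11, 6.50 and 7.60 CPM in replicates 1 to 4 labelled HFD WT. *Car1* gave -0.31 ± 0.23 (adjusted p = 0.576), the cytosolic *Car7* 0.27 ± 0.29 (adjusted p = 0.726) and the inactive related protein gene *Car11* -0.02 ± 0.41 (adjusted p = 0.982). *Car9*, *Car13* and *Car15* had at most 19 counts in any library and were below the filter (two-sided exact permutation tests of mean CPM, p = 0.686, 0.371 and 0.114). *Car15* shares 1253 exonic bases (65.7%) with *Gm20518* on the same strand, so its reads cannot be assigned with certainty. *Car13*, *Car1*, *Car3* and *Car2* lie within 259 kb of each other on chromosome 3. In that cluster the log2 fold changes of the 3 tested genes were -0.31, 0.70 and 0.34.

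**Figure D3:**
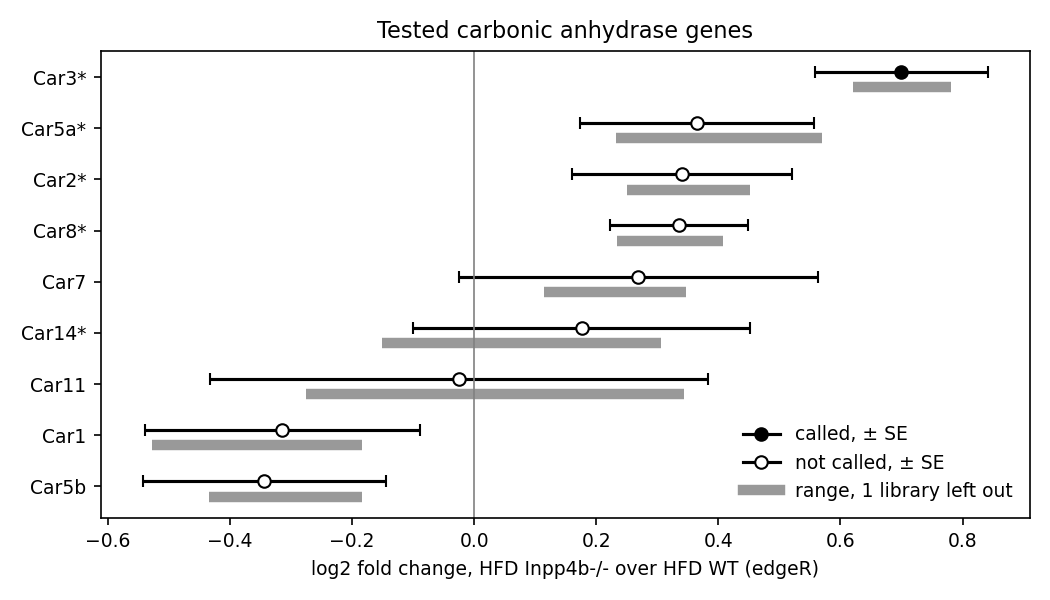
Log2 fold change, HFD Inpp4b-/- over HFD WT (x axis), of the 9 tested carbonic anhydrase genes, as edgeR's estimate ± SE (filled where called) and, as a grey bar, the range when 1 library is left out. Stars mark the chosen genes, whose calls are shown as descriptions because they were chosen with this contrast known. The bar of *Car3* runs from 0.62 to 0.78, and those of *Car14* and *Car11* cross 0.

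The 5 genes did not vary as a single group across mice. *Car3* and *Car8* had the most similar patterns of log2 CPM (Pearson r of 0.89 over the 8 libraries, 0.72 after each genotype's mean was subtracted), followed by *Car2* and *Car3* (0.80 and 0.55). *Car2* and *Car5a* gave -0.03 over the 8 libraries and -0.73 with the genotype means subtracted. *Car5a* and *Car14* gave 0.50 on both measures. These values are descriptions over 8 libraries that fall into separate genotype groups for *Car3*. All genes of a library share its depth and scaling factor. The HFD Inpp4b-/- replicates 1 and 2, which had the most *Car3*, also had the most *Car2* and *Car8*, and the least *Car5a* and *Car14* of their group.

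**Figure D4:**
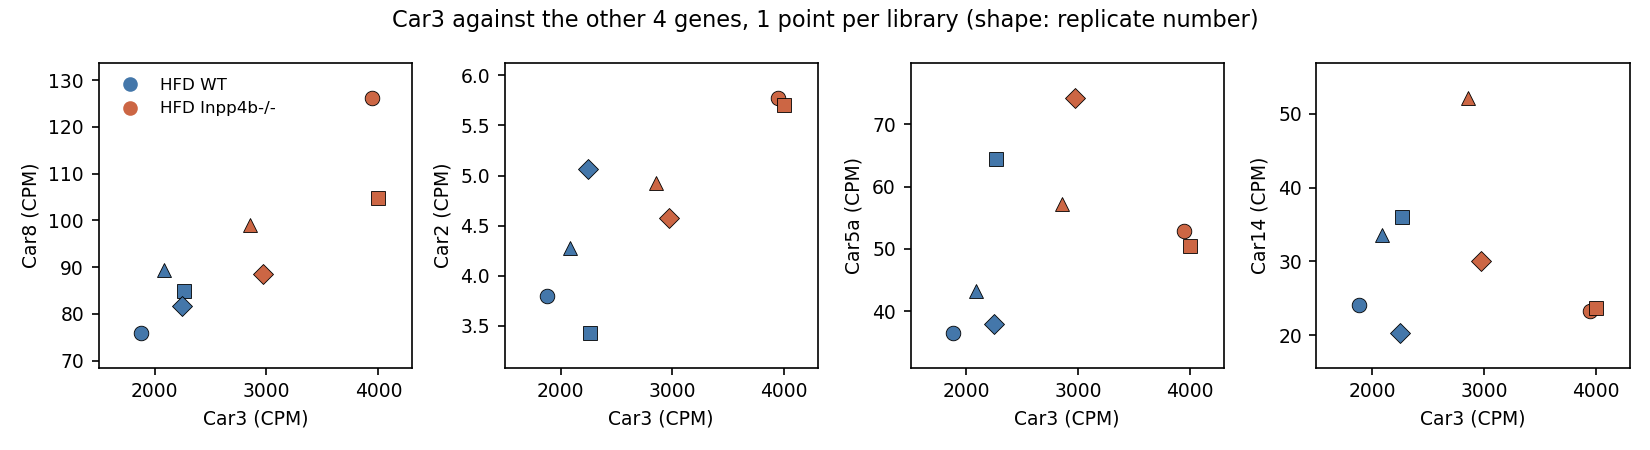
CPM of *Car8*, *Car2*, *Car5a* and *Car14* (y axes, not starting at 0) against CPM of *Car3* (x axes) with 1 point per library, HFD WT in blue and HFD Inpp4b-/- in orange, and shape for the replicate number. *Car8* is highest, at 126 and 105 CPM, in the HFD Inpp4b-/- libraries with the most *Car3*, where *Car14* is at 23.3 and 23.8 CPM.

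The enzymes that consume bicarbonate were next compared, because CAR5A feeds them. Of the 9 tested genes on this list, none was called in edgeR (1 at an unadjusted p under 0.05). DESeq2 called 1, *Cad*, the first enzyme complex of pyrimidine synthesis, as did edgeR without HFD WT replicate 2 (log2 fold change -0.84 ± 0.16 (SE), adjusted p = 0.0665). The median log2 fold change was 0.05, against 0.0027 over all tested genes. *Cps1* measured 1329, 1063, 3366 and 2922 CPM in replicates 1 to 4 labelled HFD Inpp4b-/- and 3124, 3959.7, 3101 and 2043 CPM in replicates 1 to 4 labelled HFD WT (log2 fold change -0.49 ± 0.36 (SE), adjusted p = 0.582). *Pcx*, the other partner of CAR5A, gave 0.21 ± 0.10 (adjusted p = 0.408), and *Pccb* of propionyl-CoA carboxylase 0.05 ± 0.09 (adjusted p = 0.858). The 8 urea cycle genes gave no call either (1 at an unadjusted p under 0.05, 0 in DESeq2), with a median of -0.07. Their summed CPM was 5314, 4422, 10385.5 and 9482 in replicates 1 to 4 labelled HFD Inpp4b-/-, and 6109.5 to 10111 in HFD WT. The lowest sums were those of HFD Inpp4b-/- replicates 1 and 2, the libraries with the most *Car3*. *Ass1* (0.13 ± 0.30, adjusted p = 0.877) and *Arg1* (-0.11 ± 0.23, adjusted p = 0.862) were the other abundant genes of the cycle.

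Carriers of bicarbonate, protons and lactate, the partners of membrane-bound carbonic anhydrases, showed no called gene in the edgeR fit of all 8 libraries. Without HFD WT replicate 2, the monocarboxylate carrier gene *Slc16a7* was called higher (log2 fold change 0.73 ± 0.11 (SE), adjusted p = 0.0283). Among 9 tested bicarbonate transporters, 5 had a positive log2 fold change and the median was 0.09 (1 at an unadjusted p under 0.05, 0 in DESeq2). *Slc26a1*, a sulfate and bicarbonate exchanger, gave -0.17 ± 0.21 (SE, adjusted p = 0.763), the sodium bicarbonate cotransporter *Slc4a4* 0.37 ± 0.25 (adjusted p = 0.551) and the anion exchanger *Slc4a2* 0.12 ± 0.08 (adjusted p = 0.559). The 8 tested proton and lactate transporter genes had a median of 0.16 (1 at an unadjusted p under 0.05, 0 in DESeq2). The lactate carrier *Slc16a1* gave -0.24 ± 0.19 (adjusted p = 0.612), its partner *Bsg* 0.10 ± 0.09 (adjusted p = 0.655) and *Slc9a3r1*, a scaffold of the proton exchangers, -0.14 ± 0.13 (adjusted p = 0.680).

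For *Car8*, the receptors and calcium release genes around its product were examined. None of the 11 tested genes was called in edgeR (1 at an unadjusted p under 0.05), and 9 of the 11 log2 fold changes were negative, with a median of -0.09. *Itpr2*, the main inositol trisphosphate receptor of hepatocytes, gave -0.05 ± 0.10 (SE, adjusted p = 0.865) and *Itpr1* -0.32 ± 0.18 (adjusted p = 0.463). *Atp2a2*, the pump that returns calcium to the endoplasmic reticulum, measured 208, 214, 221 and 193 CPM in replicates 1 to 4 labelled HFD Inpp4b-/- and 343, 218, 249 and 383 CPM in replicates 1 to 4 labelled HFD WT. Its groups overlapped only at HFD Inpp4b-/- replicate 3 and HFD WT replicate 2, and its log2 fold change was -0.52 ± 0.17 (adjusted p = 0.219). DESeq2 called it, and edgeR did so without HFD WT replicate 2 (adjusted p = 0.0836). The summed CPM of the list was lower in every HFD Inpp4b-/- library, at 509.9 to 545 against 558 to 718 in HFD WT, without overlap. Most of this difference lay in *Atp2a2* alone, with means of 208.9 CPM in HFD Inpp4b-/- and 298.5 CPM in HFD WT.

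Since *Car3* is known as a male-predominant, growth hormone-dependent gene in rat liver, its values were set beside sex-biased genes of mouse liver. Of 20 tested male-biased genes, 7 were called lower in HFD Inpp4b-/- and none was called higher (median log2 fold change -0.83). The 7 were *Mup20*, *Cyp4a12b*, *Cyp7b1*, *Serpina1e*, *C6*, *Moxd1* and *Gstp1*. *Cyp7b1*, an oxysterol hydroxylase, had 341, 381, 460 and 354 CPM in replicates 1 to 4 labelled HFD Inpp4b-/- and 907, 461, 917 and 706 CPM in replicates 1 to 4 labelled HFD WT (-0.96 ± 0.21 (SE), adjusted p = 0.087). *C6*, a complement protein gene, fell by 1.14 on the log2 scale (SE 0.24, adjusted p = 0.080), and *Gstp1*, a glutathione transferase, fell by 1.50 (SE 0.31, adjusted p = 0.080). *Mup20*, *Cyp4a12b* and *Serpina1e* had log2 fold changes of -2.61, -2.97 and -3.38 (adjusted p of 0.033, 0.0079 and 0.038). Each has related genes in its family, and whether reads were assigned to the right one could not be checked. *Moxd1* was at 0 to 0.161 CPM in HFD Inpp4b-/- and 2.46 to 31.6 CPM in HFD WT (adjusted p = 0.012). The summed CPM of the list was 16879.8 to 25577 in HFD Inpp4b-/- and 33169.7 to 48503 in HFD WT, and the sums did not overlap. The direction of *Car3* was opposite to that of these genes. This list was written with earlier results of these libraries known, so its count is not independent evidence of its direction. The 7 calls became 3 without HFD Inpp4b-/- replicate 2 or 3, 8 without HFD WT replicate 2, and 4 when any 1 of the other 5 libraries was left out. *Cyp7b1*, *C6* and *Gstp1* were called only with all 8 libraries or without HFD WT replicate 2 among the edgeR fits that left out a library.

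In edgeR, female-biased genes gave 1 call and growth hormone pathway genes none. Among 11 tested female-biased genes, *Cyp2b9* was called higher (172.5, 132, 102 and 29.2 CPM in replicates 1 to 4 labelled HFD Inpp4b-/-, log2 fold change 4.93 ± 0.85 (SE), adjusted p = 0.043). The other 10 were not called, and 4 of the 11 were at an unadjusted p under 0.05. The median was 0.03, but the log2 fold changes ran from -4.82 to 4.93. The *Cyp2b9* call was lost without HFD Inpp4b-/- replicate 2 or 3 or HFD WT replicate 1. DESeq2 called 4 genes of the list, *Cyp2b9*, *Cyp2b13*, *Hao2* and *Cyp4a14*, the last of these as lower in HFD Inpp4b-/-. Without HFD WT replicate 2 edgeR also called 4, all higher (*Cyp2b9*, *Cyp2b13*, *Abcd2* and *Acot3*), and without HFD Inpp4b-/- replicate 4 it called 2. *Cyp4a14* gave -0.999 ± 0.36 in edgeR (adjusted p = 0.264) and *Cyp4a10* 0.03 ± 0.21 (adjusted p = 0.961). None of the 11 tested growth hormone signalling genes was called (3 at an unadjusted p under 0.05, 0 in DESeq2), with a median of 0.24. *Ghr*, the receptor, gave 0.13 ± 0.11 (adjusted p = 0.613), *Igf1* 0.01 ± 0.17 (adjusted p = 0.989) and *Igfals*, the gene of a carrier protein of IGF1, 0.24 ± 0.18 (adjusted p = 0.598).

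CAR3 carries glutathione on its cysteines under oxidative stress, so 18 genes of thiol and peroxide defence were compared. None was called in edgeR (2 at an unadjusted p under 0.05, 0 in DESeq2) and the median log2 fold change was 0.05. The gene with the lowest adjusted p (0.0853, edgeR) was under the FDR threshold and missed the call only on the fold change threshold. The summed CPM of the 18 genes nevertheless separated the groups. It was 9777, 9792, 9863 and 9098 in replicates 1 to 4 labelled HFD Inpp4b-/- and 8389 to 8951 in HFD WT. Catalase (*Cat*) contributed most to this sum. It measured 3511, 3533, 3522 and 3408 CPM in replicates 1 to 4 labelled HFD Inpp4b-/- and 2733, 3002, 3104 and 2908 CPM in replicates 1 to 4 labelled HFD WT, without overlap (0.25 ± 0.09 (SE), adjusted p = 0.266). *Gpx1* gave 0.15 ± 0.11 (adjusted p = 0.584) and *Sod1* 0.08 ± 0.10 (adjusted p = 0.754).

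**Figure D5:**
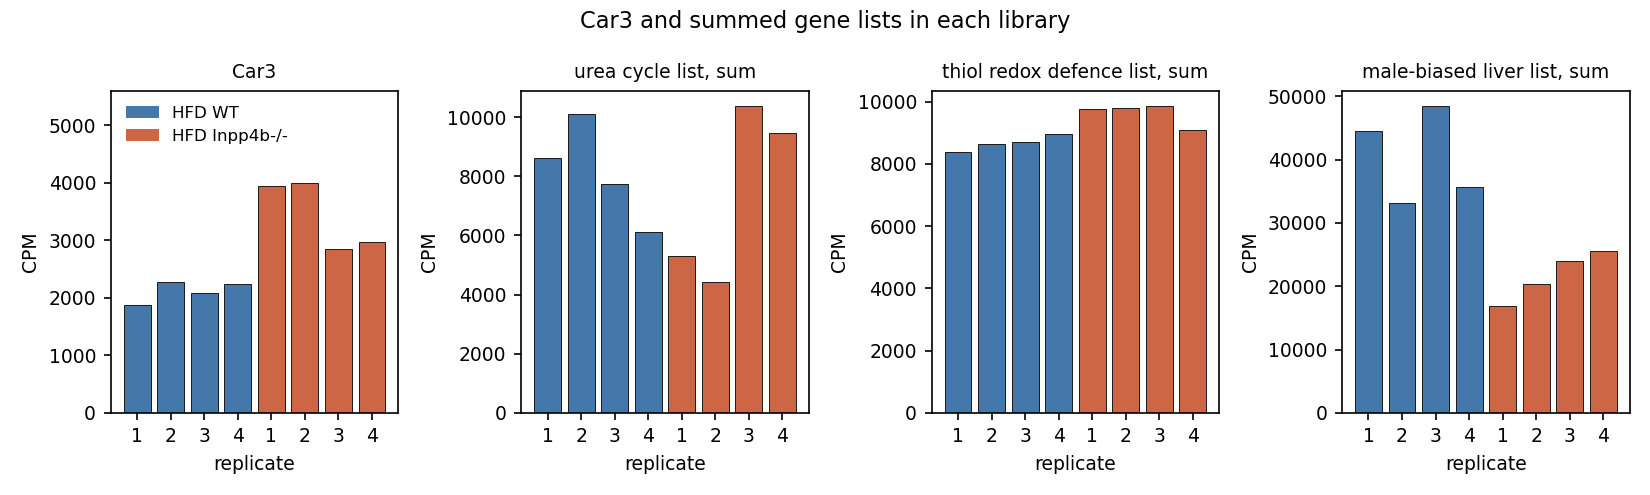
CPM of *Car3* and summed CPM of the urea cycle, thiol redox defence and male-biased liver gene lists (y axes, from 0) in replicates 1 to 4 labelled HFD WT (blue) and HFD Inpp4b-/- (orange). The urea cycle sum is lowest, 5314 and 4422 CPM, in the HFD Inpp4b-/- libraries with the most *Car3*, and the male-biased sum is at most 25577 CPM in every HFD Inpp4b-/- library.

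The tissue label was checked against cell type markers, including those of other cells that make carbonic anhydrases. The hepatocyte genes were abundant, with *Alb* at 52515 to 70754 CPM, and none of the 9 was called (1 at an unadjusted p under 0.05, 0 in DESeq2). Fat and muscle hold much CAR3. Of the adipocyte markers, *Adipoq*, *Lep*, *Plin1*, *Cfd* and *Retn* have no row in the table analysed here, and none of the 5 tested markers, some of which hepatocytes also express, was called in edgeR (1 at an unadjusted p under 0.05). DESeq2 called *Adrb3*. Most of the adipocyte sum was *Thrsp* (0.12 ± 0.40 (SE), adjusted p = 0.924), so the sum cannot show how much fat the samples held. It was lowest in HFD Inpp4b-/- replicates 1 and 2, at 682 and 767 CPM, of which *Thrsp* made up 646 and 739 CPM. The part of fat in the *Car3* values was not tested. Of 14 skeletal muscle markers 13 have no row, and the remaining *Mylpf* was at 0.346 to 0.676 CPM (0.34 ± 0.38, adjusted p = 0.725).

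Red cells and bile ducts hold CAR2, and red cells also CAR1. The erythroid sum was 222 to 363 CPM in HFD Inpp4b-/- and 129 to 445 CPM in HFD WT. Of 6 tested erythroid genes 1, *Hba-a2*, was called lower, at 0.237 to 0.583 against 0.806 to 5.09 CPM (adjusted p = 0.057), while its near-identical copy *Hba-a1* gave 0.85 ± 0.46 (SE, adjusted p = 0.443), so reads between them cannot be assigned with certainty. The *Hba-a2* call was lost when any 1 of the 4 HFD Inpp4b-/- libraries, or HFD WT replicate 1 or 3, was left out. *Hbb-bs* gave 0.13 ± 0.33 (adjusted p = 0.895). The cholangiocyte sum was 66.8 to 76.6 CPM in HFD Inpp4b-/- and 54.9 to 66.3 CPM in HFD WT, without overlap. Like *Car2* it had the higher mean in HFD Inpp4b-/-. Within that group the sums were 68.3, 66.8, 73.1 and 76.6 CPM in replicates 1 to 4, where *Car2* was at 5.77, 5.70, 4.92 and 4.58 CPM. Most of the cholangiocyte sum came from *Slc4a2* and *Spp1*. Their means were 35.6 and 28.9 CPM in HFD Inpp4b-/- and 32.7 and 19.9 CPM in HFD WT. The part of bile duct cells in the *Car2* values was not tested. None of the 7 tested cholangiocyte markers was called in edgeR (2 at an unadjusted p under 0.05), and DESeq2 called *Spp1*, the osteopontin gene (0.54 ± 0.14, adjusted p = 0.141 in edgeR). *Sox9* gave -0.71 ± 0.31 (adjusted p = 0.350). *Cftr* and *Sctr* of the cholangiocyte list and *Slc4a1* and *Epb42* of the erythroid list have no row in the table analysed here.

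Zonation was compared because urea cycle genes are periportal in the liver lobule. None of 14 pericentral genes (median log2 fold change -0.20, 2 at an unadjusted p under 0.05, 0 in DESeq2) and none of 14 periportal genes (median 0.20, 3 at an unadjusted p under 0.05, 0 in DESeq2) was called in edgeR. Without HFD WT replicate 2, the periportal *Aldh1b1* was called higher (1.55 ± 0.21 (SE), adjusted p = 0.0199). *Glul*, the glutamine synthetase of pericentral hepatocytes, gave -0.18 ± 0.13 (SE, adjusted p = 0.586), *Cyp2e1* -0.15 ± 0.17 (adjusted p = 0.738), *Cyp1a2* -0.25 ± 0.25 (adjusted p = 0.694) and the periportal *Pck1* -0.53 ± 0.35 (adjusted p = 0.534). Of the other cell types, none of 10 macrophage and leukocyte markers (0 at an unadjusted p under 0.05, 0 in DESeq2) was called. *Clec4f* of Kupffer cells gave 0.47 ± 0.30 (adjusted p = 0.525), *Cd5l* 0.46 ± 0.35 (adjusted p = 0.597) and *Lyz2* -0.19 ± 0.36 (adjusted p = 0.850). None of 12 endothelial and stellate markers was called in edgeR (3 at an unadjusted p under 0.05), and DESeq2 called *Lrat*, as did edgeR without HFD WT replicate 2 (0.94 ± 0.16, adjusted p = 0.0377). *Dcn* gave -0.12 ± 0.12 (adjusted p = 0.696), *Stab2* -0.02 ± 0.16 (adjusted p = 0.973) and *Clec4g* 0.01 ± 0.14 (adjusted p = 0.985).

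For each of the 5 genes, the 3 protein-coding genes with the most similar log2 CPM over the 8 libraries were picked from the 12577 compared. For *Car3* these were *Igtp*, an interferon-inducible GTPase (r of 0.97), *Colec12*, a scavenger receptor (0.96), and *Tradd*, an adaptor of TNF receptors (0.96). *Igtp* was called higher, at 53.8 ± 8.44 CPM (SD, n = 4) in HFD Inpp4b-/- and 35.2 ± 3.76 CPM (SD, n = 4) in HFD WT (log2 fold change 0.61 ± 0.12 (SE), edgeR adjusted p = 0.080), a call that was lost without HFD Inpp4b-/- replicate 1, 2 or 3 or HFD WT replicate 1, 2 or 3. After the genotype means were subtracted, the r values with *Car3* were 0.84, 0.85 and 0.83. For *Car2* the genes were *Ss18l1* (0.98), *Foxo4* (0.98) and *Pparg* (0.97), the adipogenic nuclear receptor. *Pparg* was at 5.18 ± 3.01 CPM in HFD Inpp4b-/- and 1.58 ± 1.52 CPM in HFD WT. It was not called in edgeR's main fit (1.73 ± 0.65, adjusted p = 0.279) but was called in 1 of 14 alternative fits. For *Car8* they were *Ago1*, *Usp28* and *Mef2a* (0.97, 0.97 and 0.96), for *Car5a* *Rmdn1*, *Ttc23* and *Tecpr1* (0.97, 0.97 and 0.96), and for *Car14* *Selenon*, *D10Jhu81e* and *Fam160b2* (0.94, 0.94 and 0.92). None of these other genes was called in edgeR's main fit, and *Usp28* was called in 1 of 14 alternative fits. These correlations over 8 libraries are descriptions, with no p.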

How the data were processed

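Total RNA of 8 livers (Tri Reagent, rRNA removed with Ribo-Zero) was sequenced by the authors. The study's methods name NEBNext Ultra for the libraries, and the labels name a different kit. Reads were aligned to GRCm38 with HISAT2 and counted per gene with HTSeq, and the raw counts were deposited. The annotation release and strand setting are not given in the sources used here. The table held 18095 genes, all with a read in every library of at least 1 genotype, and all matched GENCODE M21. The deposited normalized signal was not used, because its ratio to the count was constant within each library. There were 0 columns without a sample.

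The main fit was the quasi-likelihood test of edgeR 4.0.16 in R 4.3.3 (TMM scaling, filterByExpr, no covariate, n = 4 per genotype), with calls at a Benjamini-Hochberg FDR under 0.1 and a fold change over 1.3. Alternatives were DESeq2 1.42.0, other scalings, filters and FDR, the replicate number as a block, and fits with 1 library removed. Genes below the filter had a two-sided exact permutation test of mean CPM over 70 arrangements (smallest p 0.029, scipy 1.17.1). Correlations used log2 CPM with a prior count of 2. Tested on simulated data of this comparison (14810 genes), the fit recovered 69 of 100 genes changed 2-fold and 94 of 100 changed 4-fold, with 20 false calls. The changed genes were drawn only from those above a minimum mean count, so recovery of genes with low counts was not measured. The members and lists were chosen with earlier results of these data known, and 2 marker genes of the lists are not reported here. Named were the members, the family, *Inpp4b*, in each list the called genes and otherwise the most abundant up to 3, and 3 genes per member by likeness, as well as *Cad*, *Adrb3*, *Lrat*, *Slc16a7*, *Aldh1b1*, *Cyp2b13*, *Hao2*, *Abcd2* and *Acot3*, chosen after their values were seen.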

Additional observations from a re-analysis of the deposited data

Results flagged for a closer look

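In 8 of the 196 groups of 4 examined, 1 library lay far from its group, with a gap to the nearest other library above Dixon's critical share of the whole range. By chance about 1 in 20 groups would, or 9.8 of 196. In the family, *Car1* was high in HFD Inpp4b-/- replicate 4 (6.88 CPM, nearest 4.44 CPM) and *Car7* was high in HFD Inpp4b-/- replicate 2 (1.60 CPM, nearest 1.16 CPM). HFD WT replicate 4 was low in *Pccb* (153.8 CPM, nearest 184.7 CPM) and *Cyp1a2* (438 CPM, nearest 866 CPM). *Mup20* was high in HFD Inpp4b-/- replicate 4 (807 CPM, nearest 299.7 CPM). *Serpina1e* was high in HFD WT replicate 3 (11592 CPM, nearest 6408 CPM) and *Cyp2b9* in HFD WT replicate 2 (10.3 CPM, nearest 1.66 CPM). The summed thiol redox defence genes were low in HFD Inpp4b-/- replicate 4 (9098 CPM, nearest 9777 CPM). None of the 5 chosen carbonic anhydrases had such a library in either genotype.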

How the results depend on the processing

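The 5 carbonic anhydrases kept the sign of their log2 fold change in all 14 alternative fits, except *Car14*, which turned to -0.15 without HFD Inpp4b-/- replicate 3. Leaving out a library moved *Car2* between 0.25 and 0.45, *Car3* between 0.62 and 0.78, *Car5a* between 0.23 and 0.57 and *Car8* between 0.23 and 0.41. Other scalings shifted the median of all genes by under 0.03. The number of these genes called was 0 or 1 when a library was left out, 0 at an FDR under 0.05 and 0 with a replicate block. Same-numbered libraries did not deviate together (correlations from -0.17 to -0.010), and with the block *Car3* gave 0.69 and 26 genes were called in all, against 174. DESeq2 called 688 genes, an FDR under 0.05 left 71, and leaving out a library gave 53 (HFD Inpp4b-/- replicate 2) to 345 (HFD WT replicate 2). With a library left out, the 7 male-biased calls became 3 to 8 and the *Cyp2b9* and *Hba-a2* calls were lost in some fits. The order of levels of the 5 genes was the same with longest-transcript lengths and with plain library totals. Of the 15 genes most like a member, 15 stayed in the first 3 with a prior count of 0.5, but 1 did after genotype means were subtracted. The cause of these shifts was not tested.

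Sign changes occurred in 16 of 71 other named genes, none of them called. With upper quartile scaling *Car11* gave 0.0013, *Stab2* 0.0095 and *Selenon* 0.012. With DESeq2 size factors *Clec4g* gave -0.0020 and *Igf1* -0.0029, and with DESeq2 -0.0014 and -0.0024. With the block *Car11* gave 0.085, *Thrsp* -0.055, *Lipe* -0.0043 and *Igf1* -0.015. With a library left out, the ranges were -0.27 to 0.34 for *Car11*, -0.017 to 0.082 for *Pccb*, -0.082 to 0.33 for *Ass1*, -0.30 to 0.048 for *Arg1*, -0.21 to 0.083 for *Apoa1*, -0.29 to 0.36 for *Thrsp*, -0.12 to 0.12 for *Lipe*, -0.20 to 0.34 for *Cidec*, -0.090 to 0.49 for *Hbb-bs*, -0.42 to 0.26 for *Lyz2*, -0.16 to 0.092 for *Stab2*, -0.059 to 0.11 for *Clec4g*, -0.086 to 0.20 for *Cyp4a10*, -0.11 to 0.13 for *Igf1*, -0.20 to 0.11 for *Selenon* and -0.053 to 0.087 for *Fam160b2*.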
